A study of Mus musculus with 11 samples.

Results

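The genes described here lie next to Itgax, the gene for CD11c, on mouse chromosome 7. They were chosen by 2 things: Itgax gives its name to the CD11c-Cre transgene of the mice labelled Zeb2-deficient, and some of its neighbours had higher expression values on the arrays of those mice than on control CD172a+ arrays. The rule named 10 genes, Pycard, Trim72, Itgam, Itgax, Itgad, Cox6a2, Zfp843, Armc5, Tgfb1i1 and Slc5a2, of 19938 genes measured in the series. A probe set of their own measured 9 of them, through 10 probe sets, 2 of which name Itgad. Zfp843 was not analysed here under that symbol. A further 3 probe sets name Itgam together with the ribosomal protein gene Rpl35.

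The 11 arrays measured RNA of classical dendritic cells (cDCs) sorted from the spleen of C57BL/6 mice. CD172a+ cDCs of Zeb2(fl/fl);CD11c-Cre(tg) mice gave 4 arrays, titled CKO. Control CD24+ cDCs gave 3 arrays and control CD172a+ cDCs 4 arrays, both from Zeb2(fl/fl) mice without Cre. All groups thus carried floxed Zeb2, and the transgene was present in the CKO group alone, so for every difference of that group an effect of the transgene and loss of Zeb2 cannot be told apart. Ages, and whether replicates came from separate mice or pools, are among the points not given in the sources used here. The p-values therefore measure only how far these samples spread, and that spread may be technical.

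CD11c, CD11b and CD11d are integrin alpha chains encoded side by side by Itgax, Itgam and Itgad. Each pairs with the beta-2 chain CD18, the product of Itgb2, to form a receptor of leukocytes for adhesion molecules and complement fragments. CD11c marks dendritic cells, CD11b marks the CD172a+ subset among splenic cDCs and CD11d is known from macrophages of the splenic red pulp. CD11c-Cre transgenes use Itgax regulatory DNA to express Cre in cells with CD11c, and in a widely used line the construct is a bacterial artificial chromosome that holds genomic DNA from around Itgax. For these mice the construct is one more detail not given in the sources used here.

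The promoter windows of Itgax and Itgam are shown because the first is the one that names the transgene and the second belongs to the neighbour with the largest difference between the control subsets. Each runs from 250 bases before to 50 bases after the annotated start in RefSeq on GRCm38.p6, 5′ to 3′, with the letters CACCT, the core of the sites that Zeb factors bind, in capitals. The Itgax window is chr7:128129300-128129599 on the plus strand and the Itgam window is chr7:128062390-128062689 on the plus strand.
Itgax: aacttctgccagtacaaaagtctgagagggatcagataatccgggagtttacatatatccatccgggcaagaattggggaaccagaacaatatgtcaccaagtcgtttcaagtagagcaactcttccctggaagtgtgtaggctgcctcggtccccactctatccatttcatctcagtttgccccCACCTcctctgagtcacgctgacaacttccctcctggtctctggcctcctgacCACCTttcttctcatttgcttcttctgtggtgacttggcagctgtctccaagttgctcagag
Itgam: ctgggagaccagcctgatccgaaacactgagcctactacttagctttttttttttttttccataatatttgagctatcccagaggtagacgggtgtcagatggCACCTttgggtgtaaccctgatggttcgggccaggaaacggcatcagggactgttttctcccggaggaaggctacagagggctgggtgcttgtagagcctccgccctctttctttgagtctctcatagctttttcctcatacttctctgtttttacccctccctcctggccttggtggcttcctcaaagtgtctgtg
The table of promoters matched 4 of the 10 genes, Pycard, Trim72, Itgam and Itgax. Searched on both strands, CACCT occurred 2 times in the Itgax window, 2 times in the Pycard window, 1 time in the Itgam window and 0 times in the Trim72 window. It occurred in 51.9% of 32851 promoter windows of the same length, and at least 2 times in 18.2%. The letters GAGGAA, the core of the sites of the myeloid factor PU.1, occurred 3 times in the Itgam window, 1 time in the Pycard window and 0 times in those of Itgax and Trim72, and it occurred in 28.3% of all windows, and at least 2 times in 4.82%. A match is a description of letters and shows no binding.

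Values are log2 expression after RMA, whose differences shrink near background, and they cannot be compared between probe sets. Array medians lay between 5.454 and 5.521. The second principal component of all genes, with 34.2% of the variance, split the arrays into a pair of sets that cross the groups. The first set holds replicates 1 and 2 of both CD172a+ groups and CD24+ replicate 1, and the second holds the other 6 arrays. The sets were found from these values and not from a label, so differences are also given within them. Sorted subsets carried their markers, with 9 of 10 measured cDC1 markers higher and 8 of 10 measured cDC2 markers lower in control CD24+ than in control CD172a+ cDCs. Of all genes, 3.25% passed as higher and 3.16% as lower in that comparison. Zeb2 read 8.52, 8.32, 9.07 and 9.24 on the CKO arrays, 5.19, 5.08 and 5.52 on the control CD24+ arrays and 8.23, 8.23, 8.26 and 8.61 on the control CD172a+ arrays. It was thus not lower on the arrays labelled CKO than on their controls. Whether its probes fall inside the deleted exons is also not given in the sources used here. The group is therefore called CKO-labelled, and every direction for it rests on that label.

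Itgad and Cox6a2 were the locus genes with a large difference between CKO-labelled and control CD172a+ cDCs. Itgad, the CD11d chain, read 7.67, 7.78, 8.0 and 7.86 in CKO-labelled CD172a+ cDCs, against 5.01, 5.62, 5.72 and 5.81 in control CD172a+ cDCs. Every CKO-labelled array lay above every control array. The difference of the log2 means, 7.83 ± 0.14 in CKO-labelled and 5.54 ± 0.36 in control cells (SD, n = 4 each), was 2.29 with an SE of 0.18. Cox6a2, a cytochrome c oxidase subunit of heart and skeletal muscle that is also known as a gene of plasmacytoid dendritic cells, read 9.09, 8.99, 8.87 and 8.59 in CKO-labelled cells, against 6.46, 6.84, 6.89 and 6.97 in control CD172a+ cells. Here too the groups did not overlap. The means were 8.88 ± 0.22 in CKO-labelled and 6.79 ± 0.23 in control cells (SD, n = 4 each), a difference of 2.09 with an SE of 0.147. Among 19938 genes, Itgad held place 2 and Cox6a2 place 3 from the highest difference.

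These values led to the choice of the locus and are given with no test. For the same reason nothing is read from the count of 2 of 9 measured locus genes past an adjusted p of 0.05, both higher, beside 0.0502% of all genes in either direction, 0.0401% as higher and 0.01% as lower. The same holds for the 2 of 9 whose CKO-labelled arrays all lay above the controls, beside 1.09% of all genes, and the 0 of 9 whose arrays all lay below, beside 1.01%. Within the first and the second array set, with 2 arrays a group, 5 and 4 of the 9 did not overlap in either direction, beside 40.9% and 32.1% of all genes. Within the first and the second array set the difference was 2.41 and 2.17 for Itgad and 2.39 and 1.80 for Cox6a2. Itgad was higher in the second set in both CD172a+ groups, by 0.21 in CKO-labelled and 0.45 in control cells. Cox6a2 moved apart between the sets, by -0.31 in CKO-labelled and 0.28 in control cells.

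**Figure D1:**
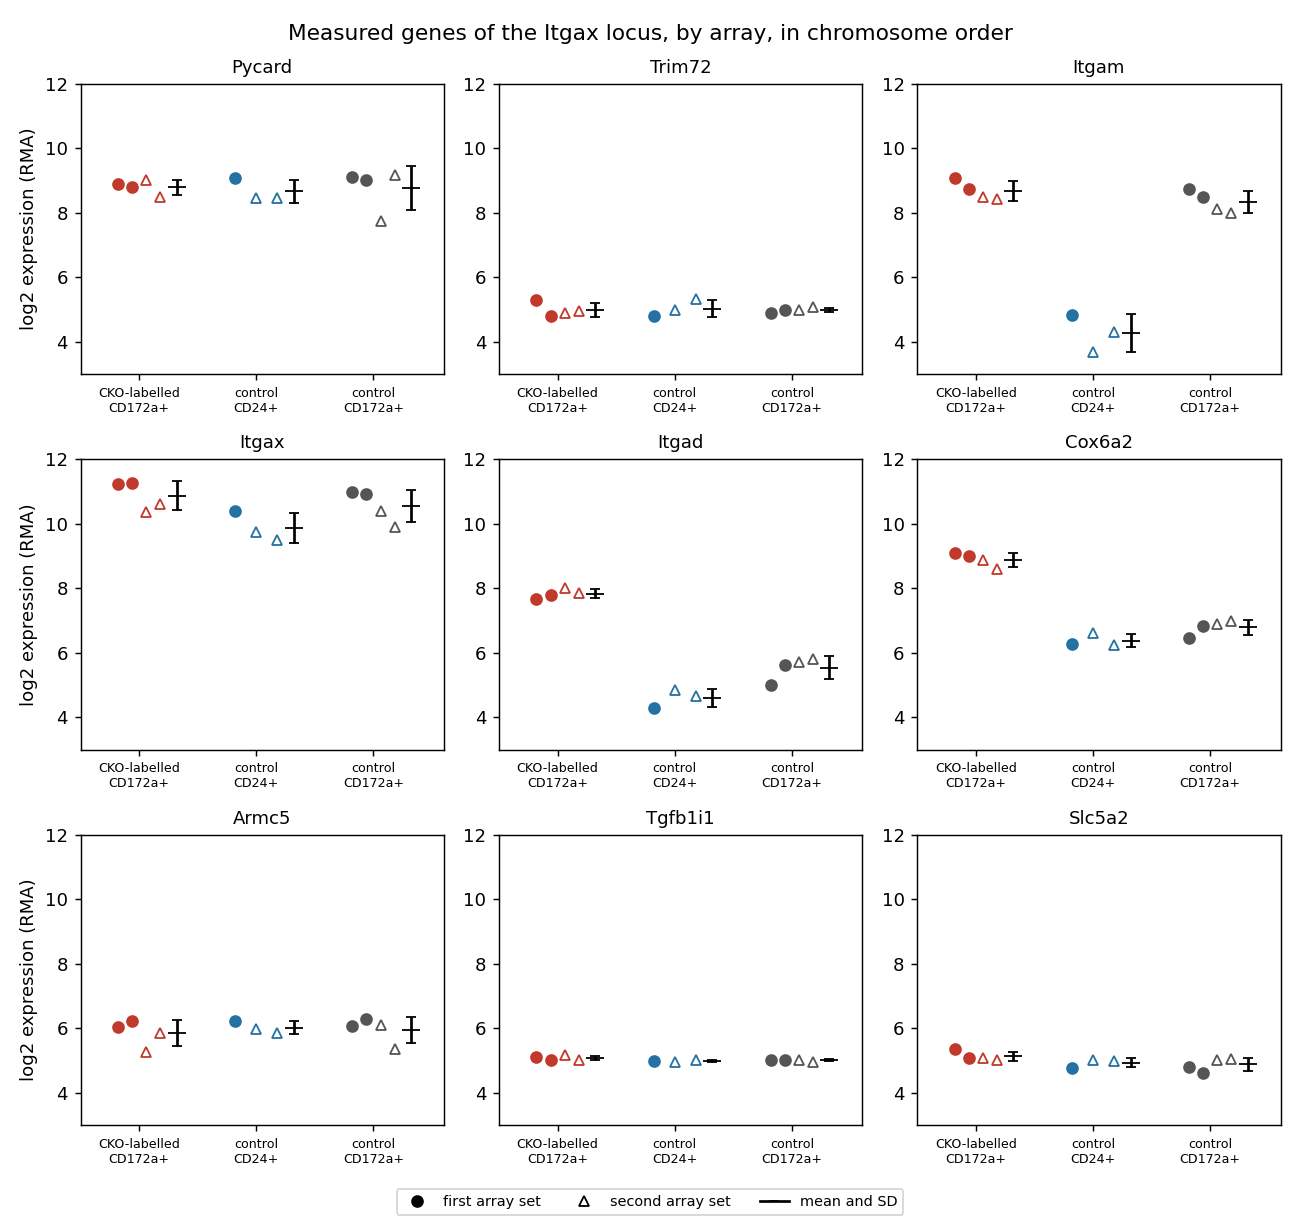
Log2 expression (vertical axis) of the 9 measured locus genes in CKO-labelled CD172a+, control CD24+ and control CD172a+ cDCs (horizontal axis). Each point is 1 array, filled circles are the first and open triangles the second array set, and the bar is the mean with its SD. For Itgad and Cox6a2 the 4 CKO-labelled arrays sit above all controls, and for Itgam the 3 CD24+ arrays sit below all CD172a+ arrays.

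A second probe set named for Itgad showed no such difference. It read 5.15, 5.08, 5.32 and 5.21 in CKO-labelled cells, against 5.07, 5.12, 5.21 and 5.41 in control CD172a+ cells, and 4.95, 5.08 and 5.12 in control CD24+ cells. The CKO-labelled and control CD172a+ arrays overlapped, with a difference of -0.01, and all group means lay below the median level of all genes. The platform annotation ties this probe set, 10557925, to a clone sequence alone, and the responding probe set, 10557928, to the same clone and to the RefSeq transcript of Itgad. In the RefSeq gene table the spans of Itgad and Cox6a2 overlap at their ends. How much RNA of either gene the probes of the other can bind was not tested.

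**Figure D2:**
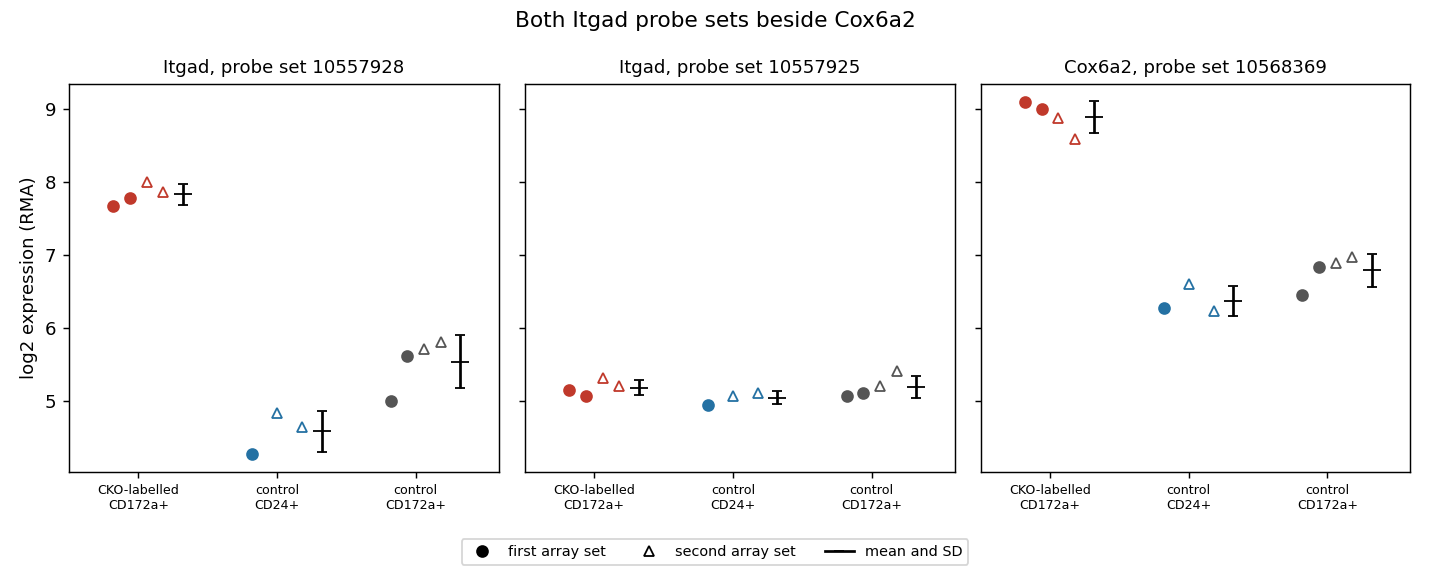
Log2 expression (vertical axis) of both Itgad probe sets and the Cox6a2 probe set in CKO-labelled CD172a+, control CD24+ and control CD172a+ cDCs (horizontal axis), 1 point per array, with the mean and SD of each group. The CKO-labelled arrays stand between 7.67 and 8.0 on probe set 10557928 of Itgad and between 5.08 and 5.32 on probe set 10557925.

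Itgax itself, the gene whose regulatory DNA names the transgene, read 11.23, 11.27, 10.37 and 10.62 in CKO-labelled cells, against 10.98, 10.92, 10.40 and 9.90 in control CD172a+ cells. The groups overlapped over all arrays, since both were lower in the second set, by 0.76 in CKO-labelled and 0.80 in control cells on the log2 scale. The difference was 0.32 with an SE of 0.295, and 0.30 and 0.34 within the first and second set. In the first set both CKO-labelled arrays lay above both controls, and in the second CKO-labelled replicate 3 lay between its controls. Itgam, the CD11b chain, read 9.08, 8.72, 8.49 and 8.41 in CKO-labelled cells, against 8.73, 8.49, 8.12 and 7.99 in control CD172a+ cells. The ranges overlapped, with a difference of 0.34 (SE 0.253), and 0.29 and 0.39 within the sets. The 3 probe sets that name Itgam together with Rpl35 read between 11.52 and 12.60 on every array, with differences of -0.05, -0.06 and -0.07 between CKO-labelled and control CD172a+ cells, and do not separate the genes.

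The other 5 measured locus genes differed less. Pycard, which encodes the inflammasome adaptor ASC, read 8.89, 8.78, 9.01 and 8.47 in CKO-labelled cells, against 9.10, 9.01, 7.73 and 9.18 in control CD172a+ cells. Control replicate 3 was low and set the difference of 0.03, which was -0.31 without it. Slc5a2, the kidney sodium and glucose cotransporter, read 5.35, 5.09, 5.08 and 5.01 in CKO-labelled cells, against 4.81, 4.63, 5.03 and 5.05 in control CD172a+ cells. Its difference of 0.25 came from the first set, with 0.50 there and 0.006 in the second. Armc5, an armadillo repeat protein, differed by -0.10, Tgfb1i1, the focal adhesion protein Hic-5, by 0.07, and Trim72, a membrane repair protein of muscle, by 0.005, with overlapping arrays in each case. The group means of Slc5a2, Tgfb1i1 and Trim72 lay under the all-gene median in every group, where small differences cannot be resolved.

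Along the chromosome, Itgad and Cox6a2 are the first and second measured genes after Itgax in the RefSeq order (GRCm38.p6). The next measured gene, 9130023H24Rik, which lies inside the span under a symbol that is not among the 10, differed by -0.07. It lies between Cox6a2 and Armc5, where the rule lists Zfp843. Genes were matched by symbol, and whether these symbols name the same gene was not checked. On the other side of Itgax, Itgam is the nearest measured gene. Of the 20 measured genes before Pycard and the 20 after Slc5a2, 0 passed limma at an adjusted p of 0.05 in CKO-labelled against control CD172a+ cells, beside 0.0502% of all genes. At an unadjusted p below 0.05 the count was also 0, beside 3.88% of all genes. The flanking differences ranged from -0.41 for Bckdk, a kinase that restrains branched-chain amino acid breakdown, to 0.19 for Cuzd1. Their median was -0.01, beside 0.006 for all genes. Of the 40, 0 had groups that did not overlap, beside 1.09% of all genes as higher and 1.01% as lower. The nearest 5 before Pycard, namely Prss36, Prss8, Kat8, Bckdk and Vkorc1, differed by 0.09, 0.17, 0.04, -0.41 and -0.23. The nearest 5 after Slc5a2, namely Rusf1, Tial1, Bag3, Inpp5f and Mcmbp, differed by -0.12, -0.06, -0.22, 0.08 and -0.14. Over all chromosomes, 19833 pairs of neighbouring measured genes were formed, and Itgad with Cox6a2 was the 1 pair (0.00504%) in which both were at least 2-fold higher in CKO-labelled cells, a fold that 0.0903% of single genes reached. This count was made after the values of the pair were known and is a description. Itgad entered it through probe set 10557928, which was picked by its mean over all arrays, the CKO-labelled ones included. On probe set 10557925 the difference of Itgad was -0.01, and the pair would not have counted.

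**Figure D3:**
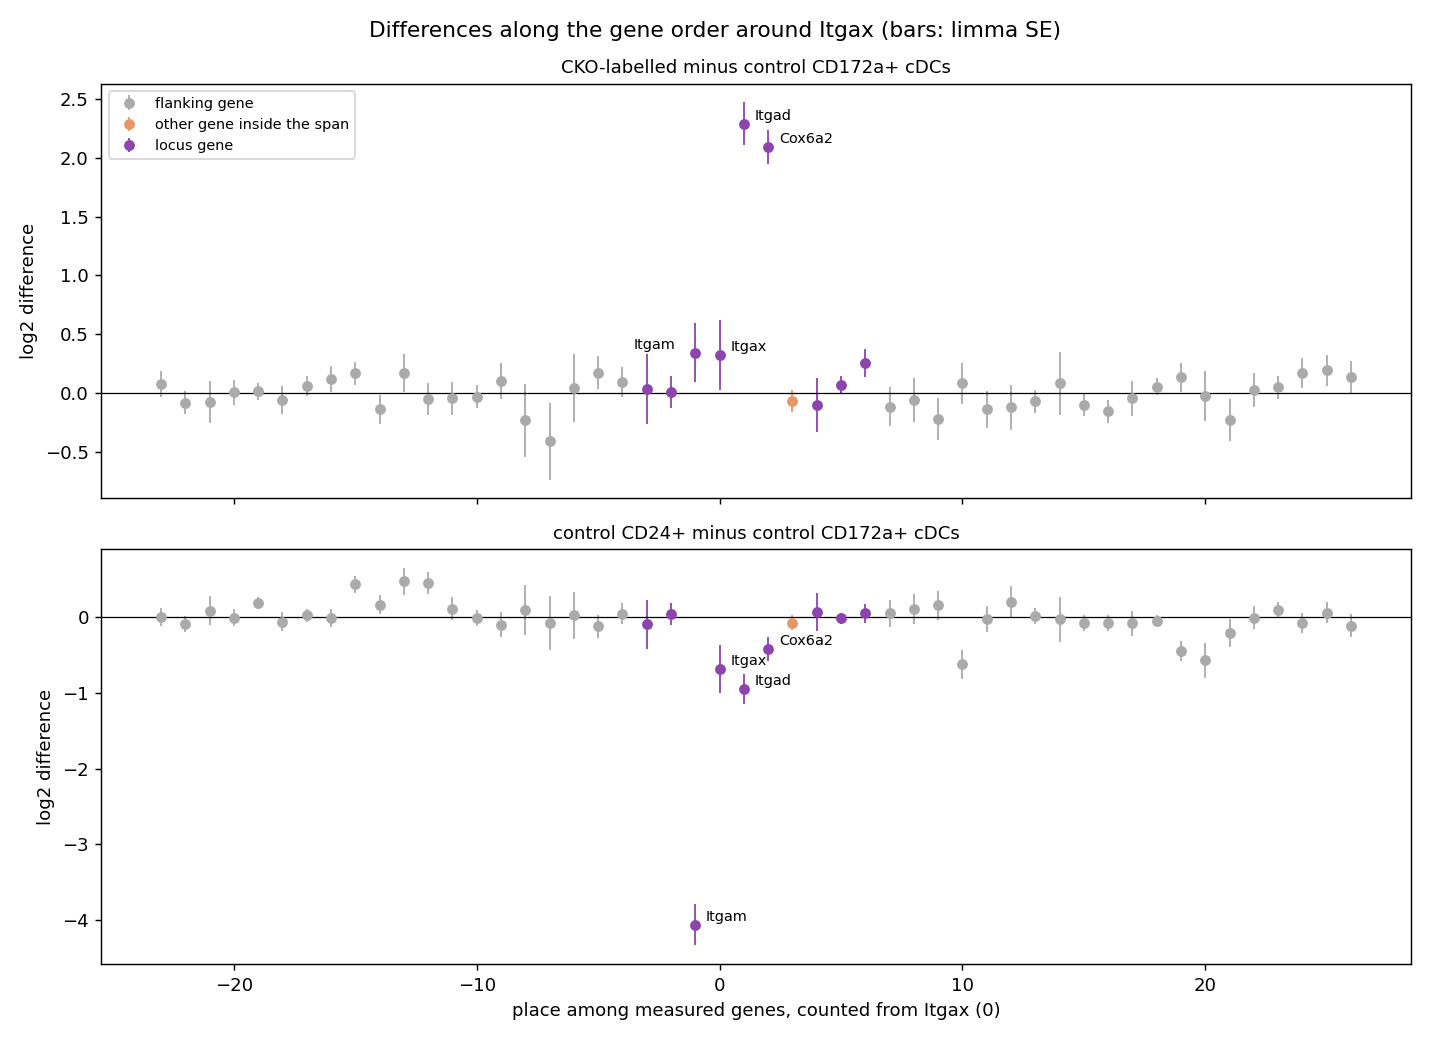
Log2 differences with their limma SE (vertical axes) of measured genes in chromosome order, counted from Itgax (horizontal axis), for CKO-labelled minus control CD172a+ cDCs (top) and control CD24+ minus control CD172a+ cDCs (bottom). Purple points are the locus genes, the orange point is 9130023H24Rik and grey points are the 40 flanking genes. In the top panel Itgad (2.29) and Cox6a2 (2.09) stand apart, while the flanking genes lie between -0.41 and 0.19.

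In control CD24+ against control CD172a+ cDCs Itgam fell, Itgad passed as lower on 1 of its 2 probe sets, the remaining 7 measured locus genes did not pass, and none rose. The genes were not chosen by this comparison, but the Itgad probe set tested was the one with the highest mean over all arrays, the CKO-labelled ones included. Over the control arrays alone the other Itgad probe set had the higher mean, 5.135 against 5.132. Itgam read 4.83, 3.67 and 4.31 in control CD24+ cells, against 8.73, 8.49, 8.12 and 7.99 in control CD172a+ cells, with no overlap. The means were 4.27 ± 0.58 (SD, n = 3) in CD24+ and 8.33 ± 0.34 (SD, n = 4) in CD172a+ cells, a difference of -4.06 (SE 0.273, limma adjusted p = 4.49e-06). CD11b is a known marker of the CD172a+ subset, and the CD24+ mean lay below the median level of all genes, where differences are shrunk. On probe set 10557928 Itgad read 4.28, 4.84 and 4.65 in control CD24+ cells, against 5.01, 5.62, 5.72 and 5.81 in control CD172a+ cells, again with no overlap. Its difference was -0.94 (SE 0.195, limma adjusted p = 0.0136), and it did not pass without CD24+ replicate 1 (-0.79, limma adjusted p = 0.0577) or with the arrays of the compared groups alone in the fit (limma adjusted p = 0.0606). The Itgad mean of 4.59 in CD24+ cells lay below the all-gene median of 5.49. The mean of 5.54 in control CD172a+ cells lay near the median of 5.52 there. On probe set 10557925 the difference was -0.15 and did not pass (limma adjusted p = 0.605 when probe sets were picked on the control arrays, 0.675 over all probe sets). The count of locus genes that passed was then 1. The call for Itgad thus depends on a probe set picked with the arrays that led to the choice of the gene. Of all genes, 6.41% passed in either direction, 3.25% as higher and 3.16% as lower, beside 2 of the 9 locus genes, both lower. At an unadjusted p below 0.05 the count was 3 of 9, beside 15.9% of all genes. The arrays did not overlap for 2 of 9, both lower, beside 7.43% of all genes as lower and 7.13% as higher. This comparison shares its control CD172a+ arrays with that of the CKO-labelled cells. In bulk samples fewer cells of a type and less RNA per cell cannot be told apart.

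Itgax and Cox6a2 had lower means in CD24+ cells without passing. Itgax read 10.39, 9.73 and 9.49 in control CD24+ cells, against 10.98, 10.92, 10.40 and 9.90 in control CD172a+ cells. Over all arrays the groups overlapped (difference -0.68, limma adjusted p = 0.336), but within each array set every CD24+ array lay below the CD172a+ arrays. When the fit took the array sets as blocks, the difference was -0.55 and Itgax passed (limma adjusted p = 0.00827). The count of locus genes was then 3, beside 15.4% of all genes. Cox6a2 read 6.28, 6.60 and 6.23 in control CD24+ cells, against 6.46, 6.84, 6.89 and 6.97 in control CD172a+ cells. Over all arrays the groups overlapped, with a difference of -0.42 (limma adjusted p = 0.196), and within each array set every CD24+ array lay below the CD172a+ arrays. Differences of the other 5 ranged from -0.10 for Pycard to 0.07 for Armc5. Of the 40 flanking genes 1, Orai3, a calcium channel subunit, was higher in CD24+ cells (0.43, limma adjusted p = 0.0352), beside 6.41% of all genes, and without any 1 of 4 CKO-labelled arrays the count was 0. Without control CD172a+ replicate 1, 2 or 4 or CD24+ replicate 2 it was also 0, and without control CD172a+ replicate 3 it was 2.

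Set against control CD24+ cells, CKO-labelled CD172a+ cells had higher means of Itgam by 4.41, Itgad by 3.24, Cox6a2 by 2.51 and Itgax by 1.00, given as a description since the same CKO-labelled arrays led to the choice. For Itgam, Itgad and Cox6a2 the arrays did not overlap, as for 8.9% of all genes in that direction. With Itgad read on probe set 10557928, the order of the group means was thus CKO-labelled, then control CD172a+, then control CD24+ for each of the 4 genes. The neighbours in that order that overlapped were CKO-labelled and control CD172a+ cells for Itgam, both neighbouring pairs for Itgax, and control CD172a+ and control CD24+ cells for Cox6a2. On probe set 10557925 the Itgad means were 5.19 in CKO-labelled, 5.20 in control CD172a+ and 5.05 in control CD24+ cells.

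Genes that work with the locus genes were described from lists that leave out the locus. Of 18 integrin chains, ligands and activators, 0 passed limma in CKO-labelled against control CD172a+ cells, beside 0.0502% of all genes. At an unadjusted p below 0.05 the count was 1, beside 3.88% of all genes, and the median difference of the list was -0.08. Itgb2, the partner chain of all 3 CD11 integrins, read 9.71, 9.68, 8.57 and 8.73 in CKO-labelled cells, against 9.82, 9.75, 9.23 and 8.82 in control CD172a+ cells, which overlapped (difference -0.23). Itgal, the CD11a chain that lies elsewhere on the same chromosome, differed by -0.09. In control CD24+ against control CD172a+ cells 2 of the 18 rose, namely Itgae, the CD103 chain (3.34), and Itgb1, the beta-1 chain (0.90). The 1 that fell was Rasgrp2, an activator of the integrin regulator Rap1 (-0.94), and 15 did not pass, beside 6.41% of all genes, with a list median of -0.05. With array sets as blocks, 7 of the 18 passed, beside 15.4% of all genes in that fit.

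Of 15 measured cytochrome c oxidase subunits, 0 passed limma in CKO-labelled against control CD172a+ cells, beside 0.0502% of all genes. The count was also 0 at an unadjusted p below 0.05, beside 3.88% of all genes. The subunits had a median difference of 0.02 and a range of -0.10 to 0.16. Cox6a1, the form of the same subunit found in most tissues, read 11.91, 11.98, 12.29 and 12.21 in CKO-labelled cells, against 11.81, 11.94, 11.89 and 12.32 in control CD172a+ cells. These overlapped, with a difference of 0.11. In control CD24+ against control CD172a+ cells 0 of the 15 passed limma, beside 6.41% of all genes, with a median of 0.17. The count was 1 at an unadjusted p below 0.05, beside 15.9% of all genes, and 3 when array sets were blocks, beside 15.4%. Of 15 genes of the inflammasome, which Pycard assembles, 0 passed limma in CKO-labelled cells, beside 0.0502% of all genes. The count was also 0 at an unadjusted p below 0.05, beside 3.88%, and the median difference was 0.04. In control CD24+ cells 3 of these fell, namely the sensor Nlrc4 (-2.31), the protease Casp1 (-1.27) and the sensor Mefv (-0.84), with 12 not passed and a median of -0.41, beside 3.16% of all genes as lower and 6.41% in either direction. With array sets as blocks, 5 of the 15 passed, beside 15.4% of all genes in that fit. The median over all genes was 0.006 in the comparison of CKO-labelled cells and -0.02 in that of CD24+ cells.

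**Figure D4:**
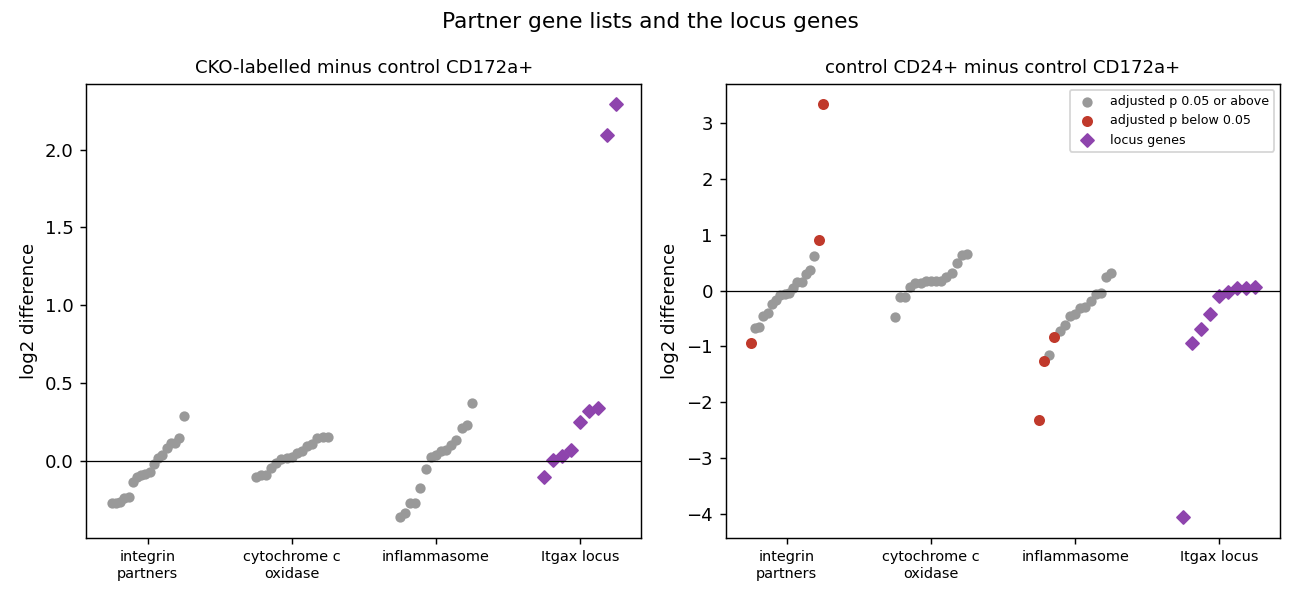
Log2 differences (vertical axes) of the genes in each list and of the 9 measured locus genes (horizontal axis), for CKO-labelled minus control CD172a+ cDCs (left) and control CD24+ minus control CD172a+ cDCs (right). Each point is a gene, red points have a limma adjusted p below 0.05 and purple diamonds are the locus genes. On the left every list point lies between -0.36 and 0.37, and Itgad and Cox6a2 lie above 2.

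Over all 11 arrays, the gene whose values were most like those of Itgad was Cox6a2 (Pearson r = 0.979), among the 9969 genes with a mean above the median. These are descriptions over arrays that share groups and array sets. The CKO-labelled values that led to the choice of Itgad and Cox6a2 enter their r, so a high r between them was fixed beforehand. Itgad was read on probe set 10557928, with a mean of 6.113 over all arrays and 5.132 over the control arrays. After Cox6a2 came Wfdc21 (0.977), Sspo (0.949), Eif2ak3, the endoplasmic reticulum stress kinase PERK (0.945), and Csf3r, the G-CSF receptor (0.932), none of them on chromosome 7. Wfdc21 averaged 6.70 ± 0.10 in CKO-labelled cells (SD, n = 4), 5.61 ± 0.10 in control CD24+ cells (SD, n = 3) and 6.09 ± 0.11 in control CD172a+ cells (SD, n = 4). For Cox6a2 the most alike were Sspo (0.98), Itgad, Zfp454 (0.946), Wfdc21 (0.939) and Eif2ak3 (0.906). The genes most like Itgax were Susd6 (0.979), Slc38a2 (0.976), D730003I15Rik (0.974), Zfp36l2 (0.965) and Tagap (0.962). Those most like Itgam were Ms4a4c (0.993), Macf1 (0.993), Ctnnd2 (0.992), Cd33 (0.991) and Emb (0.991), whose differences between control CD24+ and control CD172a+ cells ran from -4.02 for Ms4a4c to -1.37 for Macf1. Among these Cd33 lies on chromosome 7.

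Markers of plasmacytoid dendritic cells (pDCs), known to use Cox6a2, and of red pulp macrophages, known to use Itgad, were read beside these results. Lists of other cell types were read as well. Of 10 pDC markers 8 were measured, and their mean level per array ran from 6.53 to 6.80 in CKO-labelled, from 6.55 to 6.67 in control CD24+ and from 6.28 to 6.79 in control CD172a+ cells. None of the 8 passed limma between CKO-labelled and control CD172a+ cells, beside 0.0502% of all genes, and their median difference was 0.08, from -0.27 for Tcf4 to 0.43 for Cd300c. Of 10 red pulp macrophage markers all were measured, with means per array of 5.60 to 6.77 in CKO-labelled, 5.04 to 5.59 in control CD24+ and 5.50 to 6.75 in control CD172a+ cells. Again none passed between CKO-labelled and control CD172a+ cells, beside 0.0502% of all genes. Monocyte markers (9 of 10 measured) ran from 6.84 to 7.37 in CKO-labelled, 6.77 to 6.91 in control CD24+ and 7.55 to 8.06 in control CD172a+ cells. Lyz2, the lysozyme of myeloid cells, was the 1 of these that passed as lower in CKO-labelled cells (-1.66, limma adjusted p = 0.00894), beside 0.01% of all genes. The others differed by -1.225 to 0.28 without passing, and the median difference of the monocyte list was -0.79. With array sets as blocks Csf1r (-0.94) also passed as lower (limma adjusted p = 0.0304), beside 0.145% of all genes in either direction. B cell markers (9 of 10 measured) ran from 5.66 to 6.12 in CKO-labelled, 4.83 to 5.01 in control CD24+ and 5.26 to 5.70 in control CD172a+ cells. The 1 that rose in CKO-labelled cells was Fcer2a, the IgE receptor CD23 (2.05, limma adjusted p = 4.74e-05), beside 0.0401% of all genes as higher. Ms4a1, the B cell antigen CD20, differed by 2.02 without passing (limma adjusted p = 0.135), the other 7 by -0.35 to 0.46, and the list median was -0.03. All CKO-labelled arrays of Ms4a1 lay above the control CD172a+ arrays, beside 1.09% of all genes. With array sets as blocks Ms4a1 passed (limma adjusted p = 0.00201), beside 0.145% of all genes in that fit. Of the T cell, NK cell and neutrophil markers, 8 measured of each, none passed in CKO-labelled cells, beside 0.0502% of all genes. Their median differences were -0.007, 0.09 and -0.08. No marker can read 0 on this scale. The part of such cells in the levels of Itgad and Cox6a2 was not tested.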

How the data were processed

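Per the submitters' processing notes, the authors made the deposited log2 values per probe set with RMA, which corrects background, normalizes quantiles between arrays and summarises probes. Its version, the probe filters and the build are not given in the sources used here. Of 30177 probe sets, 21789 named 1 gene in the platform annotation, 1621 several and 6767 none. For each of 19938 genes the probe set of highest mean over all arrays was used. Of these genes 19855 matched the RefSeq gene table of GRCm38.p6, used for gene order.

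Tests used 1 linear model of group over the 11 arrays in limma 3.58.1 (R 4.3.3) with eBayes, two-sided, and Benjamini-Hochberg adjusted p-values over all genes at a threshold of 0.05. The fit was run on simulated data with independent noise and no array sets, which cannot show its error rates on these arrays. Precision is limited by the number of arrays (8 residual degrees of freedom). The largest share of identical values between a pair of arrays was 5.2%. Figures used matplotlib 3.10.9 in Python 3.11.15.

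Members, lists and tests were chosen with earlier results of these data known. Named were all members and their probe sets, Zeb2, flanking genes past the threshold and the nearest 5 on each side, list members past the threshold with Itgb2, Itgal, Cox6a1 and Casp1, and the 5 genes most like each of Itgad, Cox6a2, Itgax and Itgam. Cuzd1, 9130023H24Rik, Tcf4, Cd300c, Lyz2, Csf1r, Ms4a1 and Fcer2a were named after their values were seen.

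Replicate numbers were checked as a pairing. Deviations of same-numbered CKO-labelled and control CD172a+ arrays from their group means correlated across genes at 0.442 to 0.68, pairs of differing number within an array set at 0.496 to 0.699 and pairs across sets at -0.692 to -0.404. Same-numbered pairs thus correlated no more than others of their array set, and pairing by number cannot be told apart from the array set. For control CD24+ and CD172a+ arrays the correlations were 0.506, -0.445 and 0.241.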

Additional observations from a re-analysis of the deposited data

Results flagged for a closer look

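Among 18 groups of 4 arrays (9 measured genes in the CKO-labelled and the control CD172a+ group), 2 held an array far from the others by Dixon's criterion, which chance meets in about 1 of 20 groups. Pycard read 7.73 on control CD172a+ replicate 3, while the other 3 control arrays read 9.10, 9.01 and 9.18. Tgfb1i1 read 4.97 on control CD172a+ replicate 4, while the other 3 read 5.02, 5.02 and 5.03.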

How the results depend on the processing

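The differences between CKO-labelled and control CD172a+ cells stayed positive under all alternatives run for Cox6a2 (1.80 to 2.39), Itgam (0.21 to 0.47) and Itgax (0.11 to 0.49). The alternatives reuse the arrays that led to the choice of the locus, so a kept sign is a description. For Itgad the difference was 1.14 with the mean of its 2 probe sets and -0.01 when each gene's probe set was picked on the control arrays, an alternative chosen after seeing the data, and 2.11 to 2.41 otherwise. Picking on the control arrays changed the probe set of 31 genes, Itgad alone among the locus genes. It left 1 locus gene whose CKO-labelled and control groups did not overlap and 1 that passed in CD24+ cells. The count of locus genes whose groups did not overlap was 5 within the first and 4 within the second array set, beside 40.9% and 32.1% of all genes. In control CD24+ against CD172a+ cells, 1 locus gene passed with the compared arrays alone. The count was 1 to 2 when 1 replicate was left out (1 without CD24+ replicate 1, 2 over all arrays). The replicate number as a block gave 3, with Itgax at -0.83 (limma adjusted p = 0.0127), 2 flanking genes, 5 integrin partners and 5 inflammasome genes, and changed no other call of a locus gene. With the array set as a block the counts over all genes were 3080 for CD24+ and 29 for CKO-labelled cells (1278 and 10 without it), and 5 flanking genes passed. Within the first set 0 genes passed in CKO-labelled cells, and with the compared arrays alone 5. The array set block gave 7 integrin partners, 3 cytochrome c oxidase and 5 inflammasome genes. The second set gave 6, 1 and 5, beside 1753 of all genes within it. For flanking genes in CD24+ cells the count was 0 within the second set, after repeated quantile normalization, with the compared arrays alone, with variance trend, and with 10 genes a side, and 0 to 2 when 1 replicate was left out. Small differences in CD24+ cells changed sign without passing, the cause not being tested. With 1 replicate left out, the range was -0.127 to 0.184 for Armc5, -0.436 to 0.0457 for Pycard, -0.0981 to 0.161 for Trim72 and -0.0332 to 0.128 for Slc5a2. With the replicate block Armc5 was at -0.024. Within the first set Pycard was at 0.0165 and Trim72 at -0.152, and within the second Slc5a2 was at -0.0304. Tgfb1i1 was at 0.0217 with centred arrays and 0.0298 after repeated normalization.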

Other observations

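The integrin chains Itgax, Itgam, Itgb2 and Itgal, named after their values were seen, were lower in the second array set in every group. From the first to the second set Itgax changed by -0.76, -0.78 and -0.80 in CKO-labelled, control CD24+ and control CD172a+ cells, Itgam by -0.45, -0.84 and -0.55, Itgb2 by -1.04, -0.73 and -0.76, and Itgal by -1.12, -0.82 and -0.92. Itgad changed the other way, by 0.21, 0.46 and 0.45, and Itga4 had an SD of 0.0707 over the CKO-labelled and 0.0661 over the control CD172a+ arrays, which span both sets. The sets were found from these values, so the shifts are a description.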
